A study of Mus musculus with 12 samples.

Results

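Plxdc1, Cbln1, Lgi2, Fndc5 and Slc24a2 are 5 genes chosen for a high level in neurons captured from the medial entorhinal cortex (MEC) relative to neurons from the adjacent lateral entorhinal cortex (LEC). The probe that carries the name Slc24a2 did not show this difference, and that gene's place rests on a ninth probe with an older symbol, 6330417K15Rik. All probes carrying 1 of these symbols as their gene name in the scanner files were taken, which gave 8 of the 41174 probes on the array. The genes were chosen by their MEC minus LEC difference in these same arrays, so that difference is described here without a test, while the mutant over control ratio, which played no part in the choice, was tested. Neuronal bodies had been taken by laser capture from cresyl violet-stained sagittal sections of 12 µm, 500 neurons per region, from female C57BL/6 mice aged 2 months. Mutants were Naglu-/- mice, a model of the lysosomal storage disease Sanfilippo syndrome type B, and controls were their Naglu+/- littermates, so every control also carried 1 disrupted allele. Each region had 3 mutant and control pairs, each pair hybridised to 2 dual-dye arrays with the dyes exchanged, for 12 arrays in all. The labels do not say whether the MEC and LEC captures of a number came from the same mice.

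The 5 genes encode unrelated proteins. Plxdc1 (also called Tem7) is a membrane protein with a plexin-like domain that was first described in tumour endothelium and is also found in neurons. Cbln1 is a secreted synapse organiser of the C1q family, best known from cerebellar granule cells, where it links the presynaptic to the postsynaptic membrane. Lgi2 belongs to the leucine-rich, glioma-inactivated family of secreted proteins that bind ADAM proteins at synapses. Fndc5 is a membrane protein with a fibronectin type III domain whose ectodomain is released as irisin, and in muscle its transcription is raised by Ppargc1a. Slc24a2 (NCKX2) is a potassium-dependent sodium-calcium exchanger of the neuronal plasma membrane that removes calcium from the cell.

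Levels are log2 fluorescence intensities, averaged over both dyes and over the 2 arrays of a pair, after quantile normalisation between arrays. A background-level probe lies near 6 on this scale, which includes an offset of 50 added to every signal, so differences of dim probes are compressed. For tests a probe had to stand well above background in 4 or more of the 6 readings that any region and genotype supplied. Of the 8 probes, 6 were kept and 2 were not. The median Cy3 signal per array was 67 to 77.9 for MEC and 79.3 to 92.5 for LEC, and the median Cy5 signal 44.4 to 50.6 and 49.3 to 54.9. All MEC arrays were scanned in a session of their own at 10 µm per pixel and all LEC arrays in another at 5 µm per pixel, so region and scan session cannot be told apart in any MEC against LEC value below. Less RNA per cell and fewer cells of a type cannot be told apart either, because each capture pools neurons. Naglu itself checked nothing here: neither of its probes was kept, and the probe detected in Cy3 had a log2 mutant over control ratio of 0.03 ± 0.07 (SD, n = 3) in MEC.

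Among the 10898 genes with a kept probe, each represented by its brightest one, 25.6% differed between MEC and LEC by limma's moderated test at a Benjamini-Hochberg adjusted p of 0.05. Of these calls, 1263 genes (11.6%) were higher in MEC and 1532 (14.1%) were higher in LEC. The members sit at the far end of this broad difference. Plxdc1 held rank 2 of all genes by MEC minus LEC value at 1.79, followed by Cbln1 at 1.78, Lgi2 at 1.67 and Fndc5 at 1.54. The sixth rank, also 1.54, belongs to a probe named 6330417K15Rik, which RefSeq lists as an older symbol of Slc24a2. Lef1, a transcription factor gene, came next after the group at 1.47. Above a difference of 1.5 there were 6 genes and above 1 there were 32, against a median over all genes of −0.02.

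**Figure D1:**
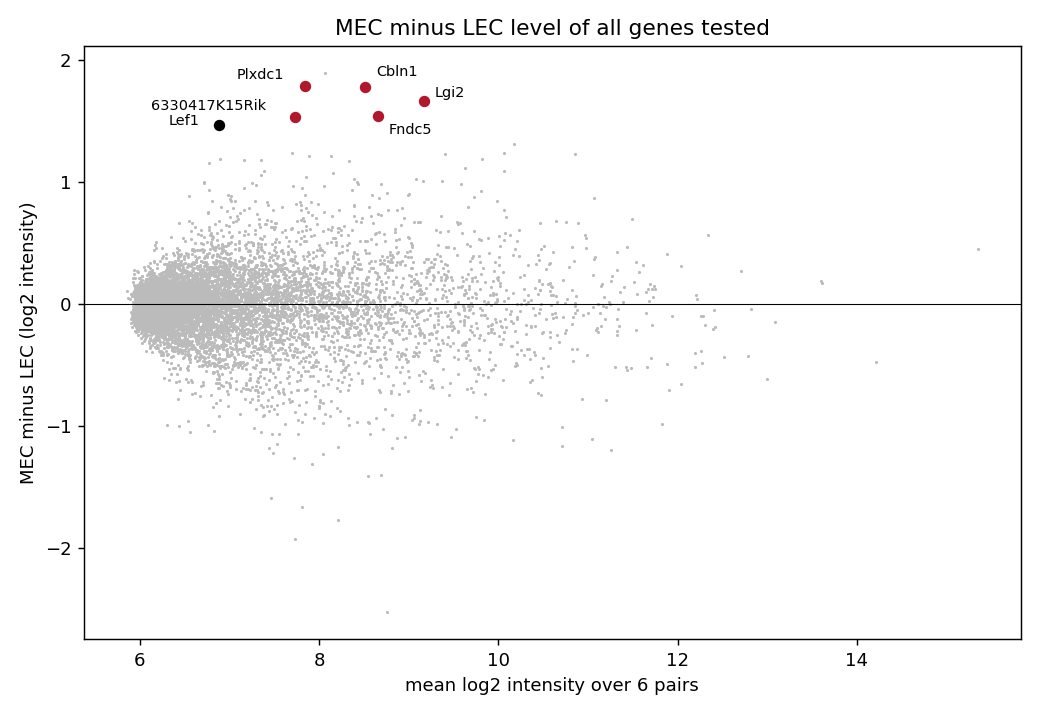
MEC minus LEC level (log2 intensity, vertical axis) against the mean level over 6 pairs (log2 intensity, horizontal axis) for all genes tested, 1 grey point per gene. Red points are the 5 members, with Slc24a2 shown by the 6330417K15Rik probe at 1.54, and the black point is Lef1, next below them in rank at 1.47.

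Plxdc1 was higher in every MEC pair than in any LEC pair. Its probe (build mm8, chromosome 11, 97739332 to 97739391, minus strand) read 8.84, 8.73 and 8.63 in the MEC pairs and 6.97, 6.84 and 7.02 in the LEC pairs. The 2 regions were far apart and the pairs within each were close. The means were 8.73 ± 0.11 and 6.95 ± 0.09 (SD, n = 3 each), a difference of 1.79, or 3.45-fold. Separated by genotype, the control channels read 8.45, 8.55 and 8.62 in MEC and 7.10, 6.72 and 7.11 in LEC. In the mutant channels it read 9.24, 8.91 and 8.64 in MEC and 6.84, 6.96 and 6.94 in LEC. No LEC capture reached the lowest MEC capture in either genotype, and the difference was 1.56 in controls and 2.02 in mutants. Which capture of replicate 2 was the mutant is unsettled, and levels by genotype here follow the authors' value table. With replicate 2 turned as its dyes are labelled, the differences were 1.60 and 1.97. Across the whole array, 19.6% of genes had all 3 MEC pairs above all 3 LEC pairs. No such share is given for single captures. The members were chosen for this difference, so non-overlap of their pairs or captures is only a description, here and below.

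Cbln1 had a difference of similar size, 1.78 or 3.44-fold, with a much wider scatter in LEC. Its kept probe (chromosome 8, 90359568 to 90359627, minus strand) read 9.52, 9.17 and 9.52 in the MEC pairs and 8.60, 6.52 and 7.74 in the LEC pairs. The means were 9.40 ± 0.20 and 7.62 ± 1.04 (SD, n = 3 each). In LEC the 6 captures ran from 6.31 to 9.35, a span of 3.04, whereas the MEC captures ran from 8.79 to 9.91. The mutant capture of LEC replicate 1, at 9.35, lay inside the MEC range, and it was the only LEC capture of Cbln1 above the lowest MEC capture. The control capture of LEC replicate 3, at 8.71, came close to that range. The dye-exchanged arrays gave similar ratios. In LEC replicate 1 the log2 mutant over control ratio was 1.42 on the first array and 1.58 on the second. In LEC replicate 3 it was −1.89 and −1.96. Their Cbln1 levels lay further apart, at 6.83 and 6.21 in LEC replicate 2 and 7.50 and 7.99 in LEC replicate 3. The MEC minus LEC difference was 1.72 in the control channels and 1.84 in the mutant channels. With replicate 2 turned as labelled it was 1.32 in controls and 2.24 in mutants. Leaving out LEC replicate 1 moved the Cbln1 difference to 2.27, and leaving out LEC replicate 2 moved it to 1.23, the lowest value of any pair left out.

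The scatter of Cbln1 within the regions moved with 2 granule cell markers. Zic1, a transcription factor gene, and Gabra6, a GABA receptor subunit gene, mark cerebellar granule cells, which also express Cbln1 at high levels. In the LEC mutant capture of replicate 1, where Cbln1 was highest, Zic1 read 10.3 and Gabra6 7.87, the highest values of both genes in the 12 captures. The control capture of the same LEC pair read 6.53 for Zic1, 5.84 for Gabra6 and 7.85 for Cbln1. In LEC replicate 3 the order of the genotypes was turned for all 3 genes: Zic1 read 6.86 in the mutant and 8.19 in the control, Gabra6 6.01 and 6.51, and Cbln1 6.78 and 8.71. In MEC replicate 3 the mutant capture read 9.86 for Zic1, 7.68 for Gabra6 and 9.91 for Cbln1, again the highest of its region for each gene. After the region means were removed, Pearson's r over the 12 levels was 0.76 between Cbln1 and Zic1 and 0.74 between Cbln1 and Gabra6. It was −0.24 between Cbln1 and Prox1, another granule cell marker. Genes outside the marker lists followed Cbln1 more closely, such as Cyth1 at 0.93 and Rnf14 at 0.89. These levels share arrays in pairs and are given as a description. Of the 4 granule cell markers, 3 were kept, none differed between MEC and LEC, and their median difference was 0.07. Their summed level ran from 8.15 to 9.25 in the MEC pairs and from 7.99 to 9.04 in the LEC pairs. Prox1 stayed between 5.98 and 6.17 in all captures and Neurod1 was not kept. Fndc5 shared part of this in LEC, with an r over the 6 captures of 0.96 with Zic1 and 0.89 with Gabra6, but not in MEC, where these were −0.22 and −0.23. For Plxdc1, Lgi2 and 6330417K15Rik the r with Zic1 over 12 levels, region means removed, was 0.02, 0.11 and 0.31. What part the granule cell transcripts had in the Cbln1 and Fndc5 values was not tested.

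Lgi2 also separated the regions. The first of its 2 probes (chromosome 5, 52821816 to 52821875, minus strand) read 10.17, 9.98 and 9.84 in the MEC pairs and 8.43, 8.34 and 8.23 in the LEC pairs. The means were 9.999 ± 0.17 and 8.33 ± 0.10 (SD, n = 3 each), a difference of 1.67, or 3.18-fold. By genotype, the controls read 9.80, 10.06 and 9.83 in MEC against 8.45, 8.50 and 8.45 in LEC. The mutants read 10.54, 9.91 and 9.85 against 8.40, 8.18 and 8.01. The ranges did not overlap, and the difference was 1.43 in controls and 1.90 in mutants, or 1.49 and 1.85 with replicate 2 turned.

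Fndc5 was likewise higher in every MEC capture. Its first probe (chromosome 4, 128646809 to 128646868, plus strand) read 9.35, 9.45 and 9.50 in the MEC pairs and 8.06, 7.74 and 7.85 in the LEC pairs. The means were 9.43 ± 0.08 and 7.88 ± 0.16 (SD, n = 3 each), a difference of 1.54, or 2.92-fold. Controls had Fndc5 at 9.05, 9.10 and 9.73 in MEC against 7.79, 7.50 and 7.93 in LEC. Mutants had it at 9.64, 9.79 and 9.27 against 8.34, 7.99 and 7.77. The difference was 1.55 in controls and 1.53 in mutants, or 1.62 and 1.47 with replicate 2 turned.

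Slc24a2 by its own name gave no signal to compare. Its only probe of that name (chromosome 4, 86461615 to 86461674, minus strand) was well above background in 6 of 24 readings, all of them in Cy3, and was not kept. It read 5.84, 5.86 and 5.94 in the MEC pairs and 5.80, 5.85 and 5.87 in the LEC pairs, and the ranges overlapped. The difference of 0.04 was within the pooled spread of the pairs. The rank of Slc24a2 among MEC-enriched genes therefore rests on the 6330417K15Rik probe (chromosome 4, 86454617 to 86454676, minus strand), which lies 6998 bases further in the direction of transcription. That probe was well above background in 24 of 24 readings and read 8.71, 8.44 and 8.35 in the MEC pairs and 6.90, 7.01 and 6.97 in the LEC pairs. The means were 8.50 ± 0.19 and 6.96 ± 0.05 (SD, n = 3 each), a difference of 1.54, or 2.90-fold. The 6 MEC captures ran from 8.06 to 8.96 and the 6 LEC captures from 6.79 to 7.14, without overlap. By genotype its difference was 1.47 in controls and 1.60 in mutants, or 1.15 and 1.93 with replicate 2 turned. The array does not show whether the 2 probes read the same transcript.

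**Figure D2:**
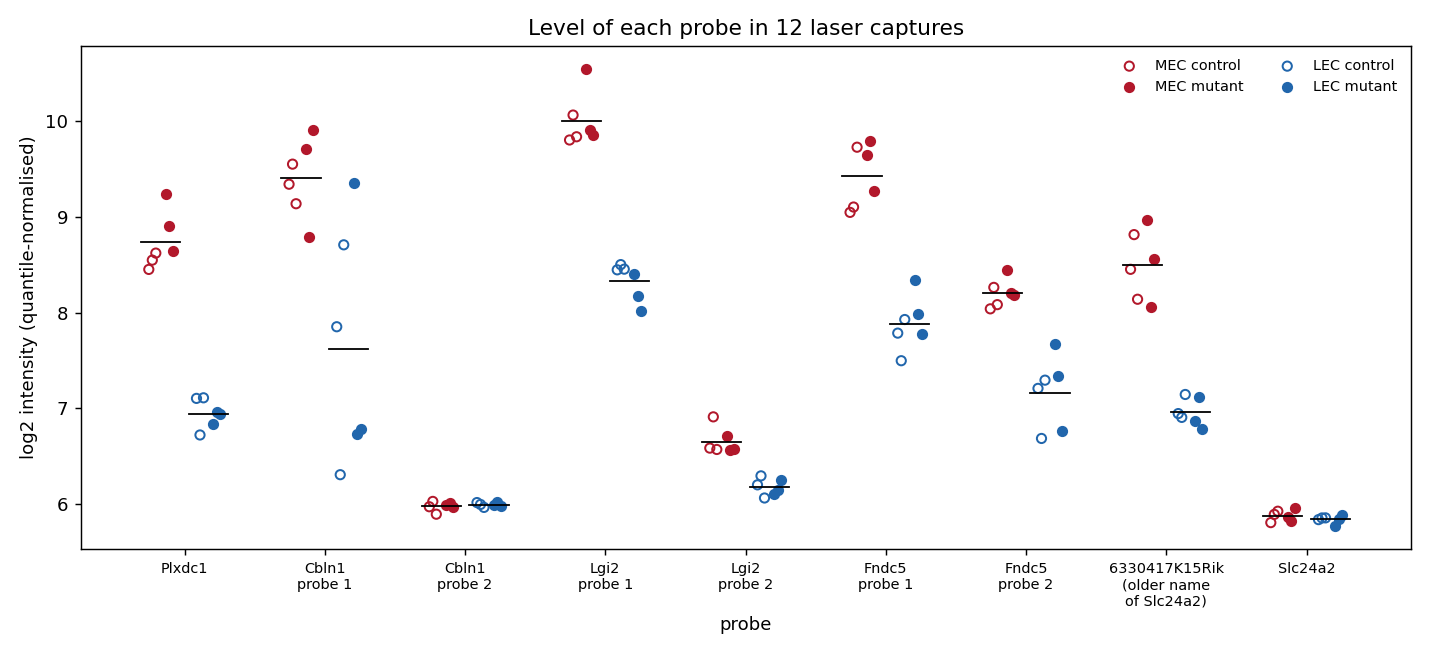
Level (log2 intensity, vertical axis) of each probe (horizontal axis) in the 6 MEC captures (red) and 6 LEC captures (blue), open circles for control and filled circles for mutant channels. Black bars are the means of 3 pairs. MEC and LEC separate for Plxdc1, the first and second probes of Lgi2 and Fndc5, and 6330417K15Rik, overlap for the kept Cbln1 probe by 1 capture, and coincide near 6 for the second Cbln1 probe and the Slc24a2 probe.

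The probes of a gene did not give the same difference. The second Cbln1 probe (chromosome 8, 90361849 to 90361908) was well above background in 11 of 24 readings, was not kept, and read 5.98, 6.02 and 5.93 in the MEC pairs and 6.01, 6.01 and 5.97 in the LEC pairs. Its difference was −0.02, and its r with the kept Cbln1 probe over 12 levels was −0.25. The second Lgi2 probe (chromosome 5, 52826248 to 52826307) was well above background in 23 of 24 readings and read 6.65, 6.74 and 6.57 in MEC and 6.15, 6.22 and 6.16 in LEC. Regions were separate at this Lgi2 probe too, with a difference of 0.47, or 1.39-fold, and an r of 0.91 with the first. The second Fndc5 probe (chromosome 4, 128645408 to 128645467) read 8.24, 8.23 and 8.14 in MEC and 7.44, 7.01 and 7.03 in LEC, a difference of 1.04, or 2.06-fold, with an r of 0.94. Averaging the kept probes of a gene lowered Lgi2 to 1.07 and rank 21, and Fndc5 to 1.29 and rank 7.

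In each of these genes the probe with the larger difference was the one nearer the 3′ end. The distance between the probes was 2281 bases in Cbln1, 4432 in Lgi2 and 1401 in Fndc5. RNA had been amplified before labelling, per the labels' protocols. Across the array, 2412 genes had 2 probes on 1 strand within 10 kb with at least 1 of them kept, and the probe nearer the 3′ end had the larger absolute MEC minus LEC difference in 59.8% of them. Among the 641 of these genes called between the regions the share was 72.4%. Those calls were made on a gene's brightest kept probe, which favours a larger difference there, so this share cannot be set against the 59.8%. Since the members were ranked by their brightest probe, their own pattern adds nothing to these shares.

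How arrays were scaled set the size of the members' differences. Without scaling between arrays the median over all genes moved to −0.27, and the calls split into 77 higher in MEC and 8188 higher in LEC. Setting every array to the same median gave a median over genes of −0.19 with 156 and 5734 calls, and the same 75th percentile gave −0.11 with 397 and 4041. Without scaling, Plxdc1 differed by 1.24, Cbln1 by 1.17, Lgi2 by 1.03, 6330417K15Rik by 1.00 and Fndc5 by 0.92. Relative to the shifted median of all genes these values were 1.51, 1.45, 1.30, 1.27 and 1.19. The 5 probes stayed between rank 2 and rank 7 under these 3 scalings. Agilent's processed signals, which carry no offset, widened the differences to 2.42 for Plxdc1, 2.37 for Cbln1, 2.13 for 6330417K15Rik, 1.88 for Lgi2 and 1.83 for Fndc5. On those signals other genes moved ahead: Lgi2 stood at rank 13 and Fndc5 at rank 17. The sign of the Slc24a2 probe changed with the setting, from 0.14 at the same 75th percentile to −0.02 without scaling and −0.07 on processed signals. Relative to the median of all genes it was 0.25, 0.25 and −0.04.

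**Figure D3:**
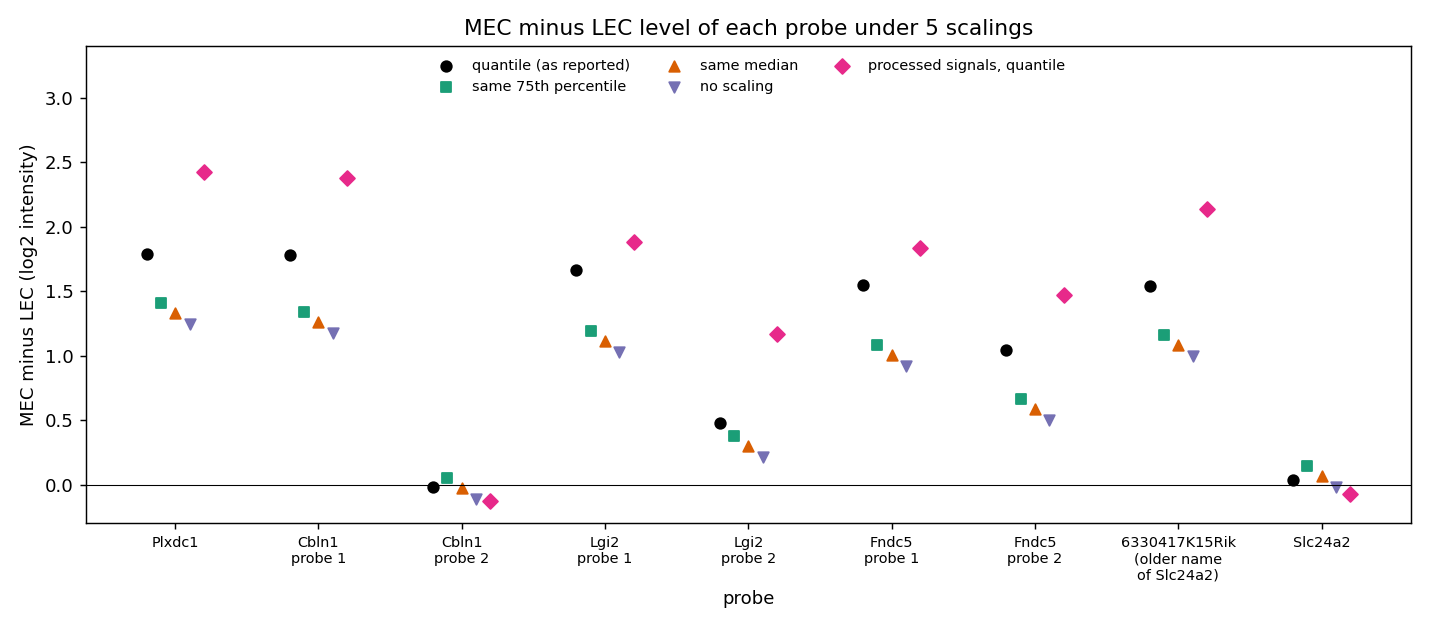
MEC minus LEC level (log2 intensity, vertical axis) of each probe (horizontal axis) under 5 ways of scaling, 1 symbol per setting. All settings put the kept probes above 0, processed signals give the largest values (2.42 for Plxdc1) and no scaling the smallest (1.24), while the second Cbln1 probe and the Slc24a2 probe stay near 0 under all of them.

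Outside the array, RefSeq (GRCm38.p6) gives start-site windows for Lgi2, Fndc5 and Slc24a2, and none was listed for Plxdc1 and Cbln1. The bases before the outermost annotated start are shown, since these genes were high in MEC together and a reader may want to compare their upstream sequence. They are written 5′ to 3′ on the gene's strand, and capitals mark matches to 5 motifs searched on both strands. These were the TATA box, spelled TATAAA, and the GC box of promoters, spelled GGGCGG. The others were the CCAAT box, spelled as its name, the element recognised by the cAMP response factors, spelled TGACGTCA, and the E-box, spelled CACGTG. Lgi2 is read from chr5:52566307-52566556, Fndc5 from chr4:129136749-129136869 and Slc24a2 from chr4:87230653-87230790.
Lgi2: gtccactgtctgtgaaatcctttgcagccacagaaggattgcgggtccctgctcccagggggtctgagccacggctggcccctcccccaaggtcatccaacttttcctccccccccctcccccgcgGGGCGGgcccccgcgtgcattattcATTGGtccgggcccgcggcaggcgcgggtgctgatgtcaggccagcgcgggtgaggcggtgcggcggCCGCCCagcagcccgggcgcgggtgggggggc
Fndc5: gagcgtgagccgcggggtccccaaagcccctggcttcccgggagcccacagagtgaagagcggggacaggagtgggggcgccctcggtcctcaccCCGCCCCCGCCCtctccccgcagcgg
Slc24a2: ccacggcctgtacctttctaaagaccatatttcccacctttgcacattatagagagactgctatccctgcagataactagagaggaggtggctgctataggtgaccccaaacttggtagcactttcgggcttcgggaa
The Lgi2 stretch of 250 bases holds 2 GC boxes and 1 CCAAT box, and 32.7% and 33.8% of the 32851 windows hold these in the same stretch. Every window was cut to the same number of bases from its upstream end. For the shorter Fndc5 and Slc24a2 stretches the windows so cut need not reach a start site. The Fndc5 stretch of 121 bases holds 2 adjoining GC boxes, found in 12.9% of windows. The Slc24a2 stretch of 138 bases holds none of the 5 motifs. GC content was 72.4% in Lgi2 and 76.0% in Fndc5, above 93.6% and 96.7% of windows, and 49.3% in Slc24a2, above 43.6%. The 3 stretches thus have no searched motif in common.

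Over the 12 levels (6 pairs in 2 genotype channels), the kept probes other than Cbln1 followed each other. The genes were chosen for a step between the regions, which by itself raises such a correlation. Pearson's r was 0.98 between Plxdc1 and Lgi2, 0.95 between Plxdc1 and Fndc5, and 0.97 between Lgi2 and 6330417K15Rik. With the region means removed these fell to 0.59, 0.50 and 0.62, and the r of Fndc5 with 6330417K15Rik was −0.28. The genes most like Plxdc1 among all brightest kept probes were Deptor (r = 0.98, or 0.79 with region means removed), Mtmr6 (0.98, 0.78) and Lgi2. Those most like Lgi2 were Cacnb4 (0.98, 0.72), Plxdc1 and 6330417K15Rik. Those most like Fndc5 were Sema7a (0.96, 0.71), Deptor (0.95, 0.58) and Plxdc1. Those most like 6330417K15Rik were Cacna2d3 (0.98, 0.83), Nefh (0.98, 0.87) and Neurod6 (0.97, 0.68). Cbln1 stood apart with Cyth1 (0.97, 0.93), Rnf14 (0.95, 0.89) and Rdh14 (0.94, 0.89), which differed by only 0.20, 0.20 and 0.17 between the regions.

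The genotype comparison asked whether the level in Naglu-/- neurons differed from that in Naglu+/- littermates. No probe of the array passed in MEC, in LEC or in the difference between them (limma, 0% of 12987 kept probes in each), and 1.04%, 1.53% and 0.547% had an unadjusted p under 0.05. With replicate 2 of both regions turned as labelled these shares were 11.2%, 9.52% and 8.84%, and again no probe passed. None of the 6 kept member probes and not the 6330417K15Rik probe passed either, with an adjusted p of 1.00 for each. For replicate 2 of both regions the authors' value table and the labelled dyes give opposite directions. If no probe differed, a fraction of 0.05 would be expected under that unadjusted p. The shares lay below this fraction by the table and above it with replicate 2 turned, and the direction is unsettled. The values here follow the table, and those with replicate 2 turned are given beside them or after them.

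Plxdc1 had log2 mutant over control ratios of 0.79, 0.36 and 0.02 in the MEC pairs, all above 0, and −0.26, 0.24 and −0.17 in the LEC pairs. With replicate 2 turned the second MEC pair read −0.36. The fitted ratio was 0.39 ± 0.15 (SE, n = 3 pairs) in MEC, with a 95% interval from 0.02 to 0.75, and −0.07 ± 0.15 in LEC. The MEC ratio was 0.19 without MEC replicate 1, and 0.15 with replicate 2 turned, with an interval from −0.28 to 0.58. The difference between the regions was 0.45, with an interval from −0.06 to 0.97.

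Lgi2 read 0.74, −0.15 and 0.01 in MEC and −0.04, −0.32 and −0.44 in LEC, where all 3 pairs were below 0. With replicate 2 turned the second LEC pair read 0.32 and the fitted LEC ratio was −0.05. As the table gives them, the fitted ratios of Lgi2 were 0.20 ± 0.17 and −0.27 ± 0.17 (SE), and their difference of 0.47 had an interval from −0.10 to 1.03. At the second Lgi2 probe the ratios were −0.07 ± 0.11 and −0.02 ± 0.11 (SE).

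Fndc5 was above 0 in 2 of 3 pairs of each region, at 0.60, 0.69 and −0.46 in MEC and 0.56, 0.49 and −0.16 in LEC. Fitted ratios were 0.28 ± 0.24 and 0.30 ± 0.24 (SE), and their difference was −0.02, with an interval from −0.81 to 0.77. The second Fndc5 probe gave 0.15 ± 0.22 in MEC and 0.20 ± 0.22 in LEC. Cbln1 could not be placed at all: its pairs read 0.36, −0.76 and 0.77 in MEC and 1.498, 0.43 and −1.93 in LEC. Its interval ran from −1.28 to 1.53 in MEC and from −1.40 to 1.40 in LEC. The 6330417K15Rik probe read 0.51, −0.75 and 0.42 in MEC and −0.08, 0.22 and −0.36 in LEC.

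With replicate 2 turned as labelled, the pairs of 6330417K15Rik lay on 1 side of 0 in each region. Its ratios then read 0.51, 0.75 and 0.42 in MEC, all above 0, and −0.08, −0.22 and −0.36 in LEC, all below 0. The fitted values were 0.56 ± 0.08 and −0.22 ± 0.08 (SE), and the difference of 0.78 had an interval from 0.51 to 1.05. Even so its limma adjusted p was 0.43 in MEC, 0.49 in LEC and 0.56 for the difference. Cbln1 turned in this way read 0.36, 0.76 and 0.77 in MEC, with a fitted ratio of 0.63, a limma adjusted p of 0.61 and a wide range in LEC. Its region difference was 0.92, with an interval from −0.82 to 2.66. The Fndc5 ratio changed sign in both regions, to −0.18 in MEC and −0.03 in LEC. The dye-exchanged arrays of a pair agreed in sign in 6 of 6 pairs for Cbln1, Fndc5 and 6330417K15Rik and in 5 of 6 for Plxdc1 and the first Lgi2 probe. At the second probes they agreed in 4 of 6 pairs for Fndc5 and in 1 of 6 for Lgi2. The median gap between the 2 arrays' ratios was 0.10 for Plxdc1, 0.13 for Cbln1, 0.15 for Lgi2, 0.07 for Fndc5 and 0.12 for 6330417K15Rik. It was 0.21 at the second Fndc5 probe and 0.38 at the second Lgi2 probe, where it exceeded the SD between pairs of 0.25 in MEC and 0.18 in LEC.

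**Figure D4:**
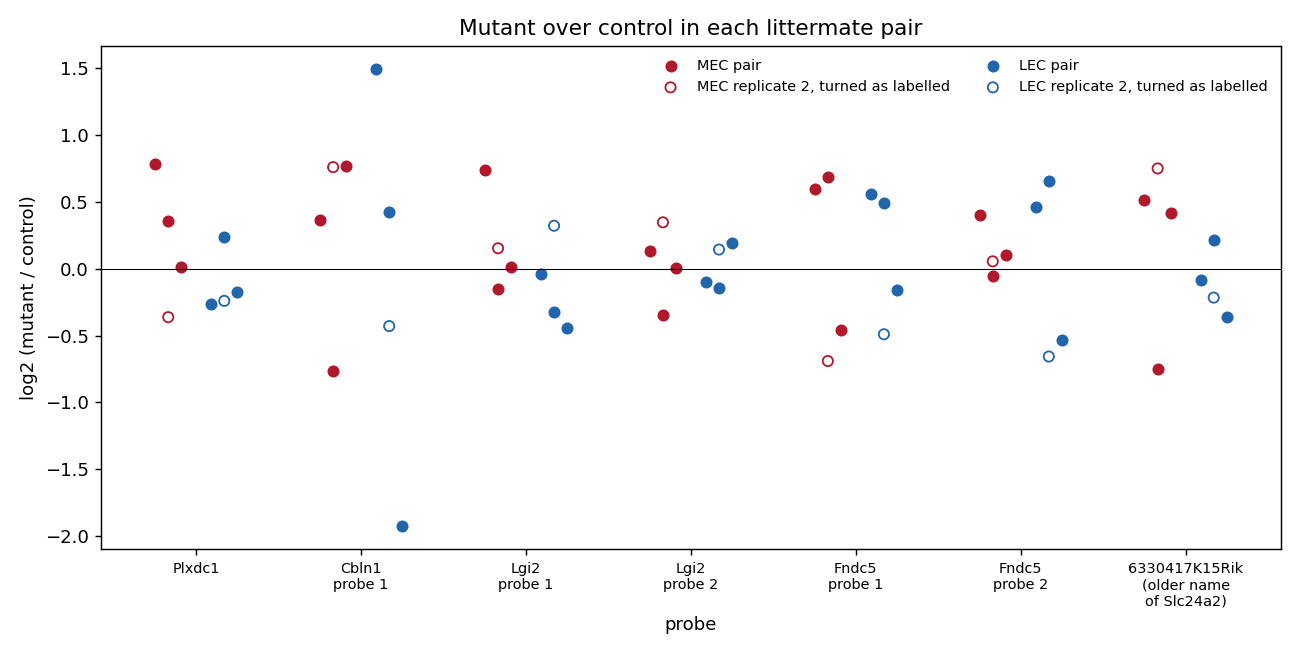
Log2 ratio of mutant over control (vertical axis) in each littermate pair for the 7 kept probes (horizontal axis), red for MEC and blue for LEC. Filled circles follow the authors' value table and open circles show replicate 2 turned as labelled. Plxdc1 lies above 0 in all 3 MEC pairs (0.79, 0.36 and 0.02) by the table, with the second at −0.36 when turned, and Cbln1 spreads from −1.93 to 1.498 in LEC.

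Relatives and partners of the 5 genes were called in both directions between the regions. Of 61 genes in 5 lists, 31 had a kept probe, 5 of these (16.1%) were higher in MEC and 2 (6.45%) were higher in LEC by limma, against 11.6% and 14.1% of all genes. Without scaling between arrays none of the 31 was called higher in MEC and 21 were called higher in LEC, where 77 and 8188 of all 10898 genes were called. The lists were chosen with earlier results of these data known. They are described by their counts and medians, beside a median of −0.02 over all genes.

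None of the 5 kept genes of the plexin domain and tumour endothelial list was called, and its median was −0.05. Plxdc2, the closest relative of Plxdc1, read 6.48 in MEC and 6.43 in LEC, a difference of 0.05 ± 0.06 (SE). Cttn, which encodes the actin-binding protein cortactin, differed by −0.07, and the vessel-associated genes Robo4 and Cd248 by −0.07 and 0.00. Serpinf1, whose product PEDF is a ligand of Plxdc1, and Nid1 were not kept.

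Among the cerebellins, their relatives and receptors, 1 of 5 kept genes was higher in LEC, none in MEC, and the median was −0.20. The called gene was C1ql3, another secreted C1q-like synaptic protein. It read 6.38, 6.74 and 6.38 in the MEC pairs and 7.23, 7.12 and 7.51 in the LEC pairs, without overlap. Its difference was −0.79 ± 0.13 (SE, limma adjusted p = 0.0043), opposite in sign to that of Cbln1 under the 4 scalings run for it. Cbln2 differed by −0.20 and was not called, and Cbln3 and Cbln4 were not kept. Nrxn2, which encodes a presynaptic receptor, differed by −0.20 and was not called. These non-calls depended on the scaling. Nrxn2 was called higher in LEC at the same 75th percentile, at −0.47 relative to the median of all genes. Cbln2 was called higher in LEC on processed signals, at −1.06 relative to that median.

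In the list of the LGI family and its partners, 2 of 8 kept genes were higher in MEC, none in LEC, and the median was 0.13. Kcna1, a voltage-gated potassium channel subunit found in complexes with Lgi1, read 9.60, 9.64 and 9.78 in MEC and 9.15, 9.12 and 9.33 in LEC. Its difference of 0.47 ± 0.07 (SE, limma adjusted p = 0.0041) was 0.06 relative to the median of all genes both without scaling between arrays, where Kcna1 was called higher in LEC like most genes, and at the same 75th percentile, where it was not called. Lgi1 differed by 0.18 (limma adjusted p = 0.028), a small shift near background at 6.23 against 6.04, and was not called without scaling. Kcnab1, Adam23, Kcna4 and Adam11 differed by 0.02, −0.05, 0.16 and −0.01 and were not called. At the same 75th percentile Adam23 was called higher in LEC, at −0.15 relative to the median of all genes. Adam22, the main partner of Lgi proteins at synapses, and Dlg4 were not kept.

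In the list of the FNDC family and the Fndc5 pathway, 2 of 5 kept genes were higher in MEC and the median was 0.03. The called genes were Ppargc1a, the coactivator that raises Fndc5 transcription in muscle, and Esrra, the nuclear receptor it works with. Ppargc1a read 6.82, 7.03 and 6.83 in MEC and 6.50, 6.43 and 6.40 in LEC, a difference of 0.45 ± 0.07 (SE, limma adjusted p = 0.0037). Esrra read 7.48, 7.41 and 7.59 in MEC and 6.86, 6.90 and 6.99 in LEC, a difference of 0.58 ± 0.06 (SE, limma adjusted p = 0.0011). The regions did not overlap for either gene. Without scaling neither was called, with both differences at 0.37 relative to the median of all genes, and at the same 75th percentile Esrra passed and Ppargc1a did not. Itgb5, a subunit of an irisin receptor, differed by −0.07 and was not called, and the family members Fndc4 and Fndc1 by 0.03 and −0.13. On processed signals Fndc1 was called higher in LEC, at −0.63 relative to the median of all genes.

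Of the sodium-calcium exchangers and calcium pumps, 1 of 8 kept genes was higher in MEC and 1 was higher in LEC, with a median of 0.05. Atp2a2, the calcium pump of the endoplasmic reticulum, read 9.56, 9.54 and 9.21 in MEC and 8.88, 8.61 and 8.81 in LEC, a difference of 0.67 ± 0.11 (SE, limma adjusted p = 0.0044). Without scaling Atp2a2 was not called and was 0.27 relative to the median of all genes. Slc24a3, the exchanger of the same family as Slc24a2, went the other way. It read 6.02, 6.13 and 6.01 in MEC and 6.33, 6.26 and 6.33 in LEC, a difference of −0.26 ± 0.05 (SE, limma adjusted p = 0.010), and was higher in LEC under the 4 scalings run for it. These Slc24a3 levels lie near background. The plasma membrane pump gene Atp2b2 differed by 0.48 and missed the threshold, with a limma adjusted p of 0.057. Atp2b1, Slc8a1 and Atp2a3 differed by 0.03, 0.14 and 0.07. At the same 75th percentile Atp2b1 was called higher in LEC, at −0.28 relative to the median of all genes.

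**Figure D5:**
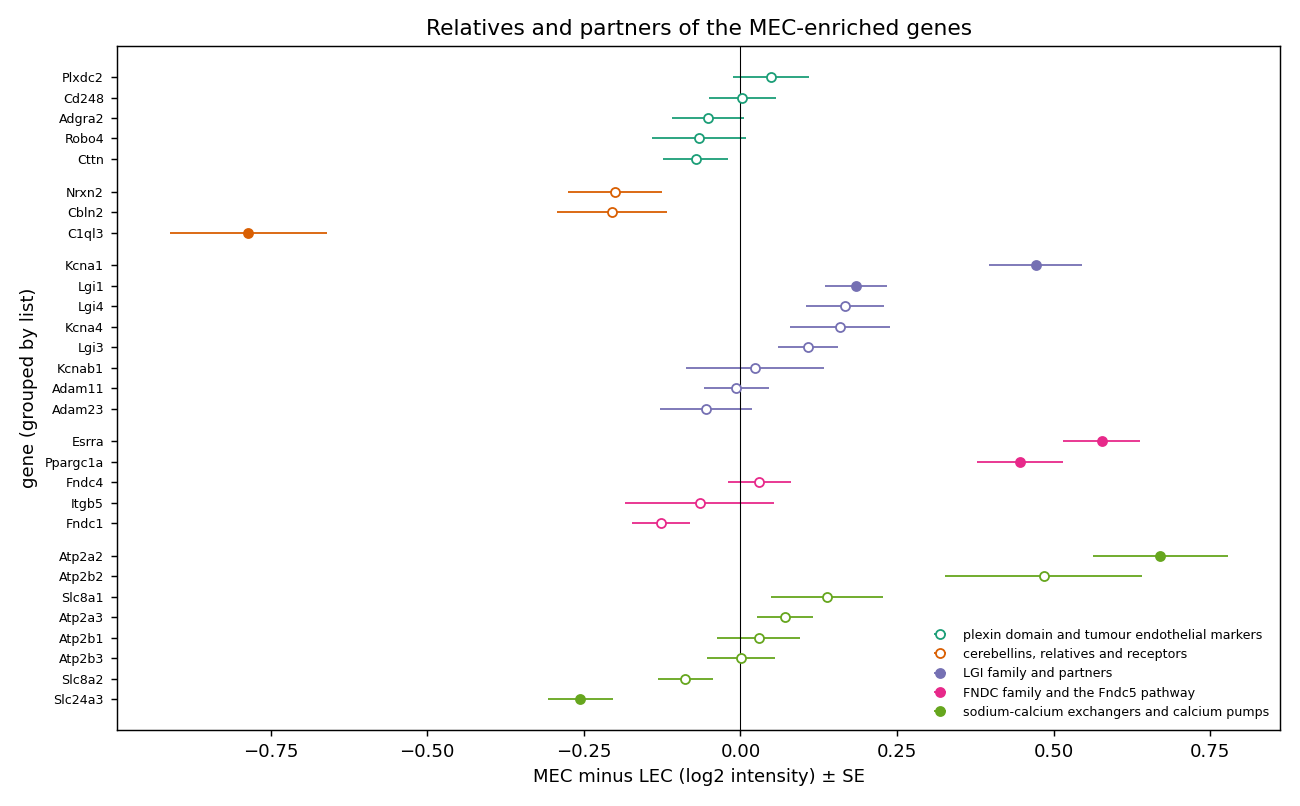
MEC minus LEC level (log2 intensity, horizontal axis) with its standard error for 29 kept relatives and partners (vertical axis), coloured by list. Filled points passed limma's adjusted threshold, and these 7 run from −0.79 for C1ql3 to 0.67 for Atp2a2.

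Cell markers moved between the regions as well. Of the neuronal markers, Camk2a, a kinase gene of excitatory neurons, was detected at 9.15 in MEC and 8.98 in LEC, and Gad1, which makes GABA, at 6.80 and 6.49. The vesicular glutamate transporter gene Slc17a7 was well above background in 11 of 24 readings and was not kept. Of 44 kept markers, 13 (29.5%) were higher in MEC and 6 (13.6%) were higher in LEC, against 11.6% and 14.1% of all genes. Without scaling 5 and 21 were called, against 77 and 8188 of all 10898 genes. The marker lists were chosen with earlier results of these data known, and they hold Lef1, next in rank after the members. Their shares therefore cannot be read as a trait of markers.

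Within the layer list, 5 of 10 kept genes were higher in MEC: Lef1 by 1.47, Wfs1 by 0.98, Nr4a2 by 0.85, Reln by 0.61 and Cux2 by 0.18. Calb1 and Cplx3 were lower in MEC by −0.93 and −0.43. Of these, Wfs1, Nr4a2, Reln and Cux2 were not called without scaling. Among the excitatory markers Neurod6 was higher in MEC by 1.16 and Nrgn was higher in LEC, at −1.16. Among the inhibitory markers Pvalb, Slc32a1 and Gad1 were higher in MEC by 0.55, 0.43 and 0.31, and Sst was higher in LEC, at −0.87. Slc32a1 and Gad1 were not called without scaling, where they were 0.13 and 0.23 relative to the median of all genes, nor at the same 75th percentile.

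Oligodendrocyte genes moved with the members in part. Of 6 kept genes in that list, 4 were higher in MEC and 1 was higher in LEC, with a median of 0.33, and the summed level ran from 10.09 to 10.36 in the MEC pairs and from 9.70 to 9.85 in the LEC pairs. Mobp, Mag and Cldn11 were higher in MEC by 0.67, 0.42 and 0.23. Cldn11 lay near background, at 6.14 in MEC and 5.90 in LEC. Relative to the median of all genes Mag and Cldn11 were at 0.11 and 0.40 without scaling, where Mag was called higher in LEC and Cldn11 was not called. Mbp, which encodes myelin basic protein, went the opposite way, at 7.32 in MEC and 8.29 in LEC. The part of oligodendrocyte transcripts in the members' levels was not tested.

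Markers of other cells differed little. Among 6 kept microglial genes only Cx3cr1 was called, at −0.19. The Cx3cr1 levels of 5.90 in MEC and 6.08 in LEC lie near background. At the same 75th percentile Cx3cr1 was not called, and Csf1r was called higher in LEC, at −0.27 (limma adjusted p = 0.0077). None of the 5 kept astrocyte genes and none of the 3 kept vessel genes was called. Their summed levels ran from 9.78 to 10.02 and from 7.86 to 7.91 in the MEC pairs, and from 9.49 to 10.16 and from 7.75 to 8.09 in the LEC pairs. Gfap, Aqp4 and Pecam1, which define astrocytes and endothelium, were well above background in 11, 10 and 11 of 24 readings and were not kept, and Cldn5, a tight junction gene of vessels, differed by 0.07.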

How the data were processed

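The measurements are 12 Agilent dual-colour arrays, 6 of MEC and 6 of LEC neurons. Scanner intensities, well-above-background flags and local backgrounds were deposited per spot. Per the submitters' processing notes the software was Agilent Feature Extraction 8.5.1.1, while per the file headers it was 9.5.1.1. The deposited scanner files also give a log10 ratio of Cy5 over Cy3, computed by that software per the file headers and not used here. The authors' deposited table holds log2 ratios per array, with centring and direction unstated. The ratios of processed signals in 1 scanner file matched each column of that table over 9166 bright spots (r 0.998 to 0.999 in size, no other above 0.657). By this match 5 of 6 LEC files belong to a different LEC sample than the one they are filed with, and replicate 2 of both regions opposes the labelled dyes, which was left unsettled. Arrays and directions follow the table, with the labels as alternatives.

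The software was limma 3.58.1 under R 4.3.3, with files read by the package data.table (version 1.17.8). Background was corrected by normexp (offset 50), dyes were balanced by loess, levels were quantile-normalised between arrays, and spots of a probe and arrays of a pair were averaged. The rule for keeping probes left 12987 of 41174. Names came from RefSeq (GRCm38.p6): 23374 probes by accession, 6733 by symbol, 2919 by older symbol and 8148 unnamed. Coordinates are those of build mm8. Levels were compared with limma over 10898 genes and ratios over 12987 probes, two-sided, with Benjamini-Hochberg adjustment. The p-values measure the spread between 3 pairs per region, and the number of arrays limits precision. The fits were tested on simulated data. Named genes are the members with every probe, relatives that passed with up to 4 brighter others per list, defining cell markers and those that passed, the 3 genes most like each member, Naglu, and the neighbours in rank. Members and lists were chosen with earlier results of these data known. The 6330417K15Rik probe was added after its values were seen. A few genes that this rule would name are not reported here. Same-numbered MEC and LEC pairs were not treated as paired.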

Additional observations from a re-analysis of the deposited data

How the results depend on the processing

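At the first probes of Plxdc1, Cbln1, Lgi2 and Fndc5 and at 6330417K15Rik, MEC minus LEC stayed above 0 under the scalings, filters, dyes and left-out pairs that were run, and its size followed the scaling. Without scaling between arrays they were 1.24 (Plxdc1), 1.03 (Lgi2), 0.92 (Fndc5), 1.00 (6330417K15Rik) and −0.020 (Slc24a2), with 77 genes called higher in MEC and 8188 in LEC, 0 and 21 related genes, and 5 and 21 cell markers. At the same median they were 1.33, 1.11, 1.00 and 1.08, with 156 and 5734 genes. At the same 75th percentile they were 1.40, 1.19, 1.08, 1.16 and 0.14, with 397 and 4041 genes, 2 and 7 related genes and 7 markers higher in MEC. Processed signals gave 2.42, 1.88, 1.83, 2.13 and −0.072, and 4 related genes higher in LEC. The other probe gave −0.017 for Cbln1, 0.47 for Lgi2 and 1.04 for Fndc5, and the mean of kept probes 1.07 for Lgi2 and 1.29 for Fndc5. In the control channels Plxdc1 was 1.75 with files as labelled and 6330417K15Rik 1.15 with replicate 2 turned. Leaving out a pair gave 1.73 to 1.84 for Plxdc1, 1.23 to 2.27 for Cbln1, 1.58 to 1.75 for Lgi2, 1.46 to 1.63 for Fndc5, 1.43 to 1.61 for 6330417K15Rik and 0.01 to 0.06 for Slc24a2. It left 377 to 1134 genes higher in MEC and 341 to 1461 in LEC, the lowest (377 and 341) without replicate 2 of both regions. With a single pair left out the lowest were 829 higher in MEC, without LEC replicate 2, and 875 higher in LEC, without MEC replicate 1. The replicate block gave 1117 and 1295 genes. Same-numbered MEC and LEC pairs did not deviate together (r = −0.06, 0.02 and −0.03). With 3 pairs per region and separate scan sessions, this cannot show whether they came from the same mice. The cause of these shifts was not tested.

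No genotype ratio of a member passed in any of 309 alternative values, whose lowest limma adjusted p was 0.397, while 45 changed sign. Processed signals turned Cbln1 in LEC to 0.073 and the second Lgi2 probe in LEC to 0.0023, and the authors' deposited table gave 0.083 for Cbln1 in LEC. With files as labelled, MEC ratios turned to 0.16 (second Lgi2 probe) and −0.18 (Fndc5), LEC ratios to 0.079 (Plxdc1), 0.11 (Cbln1) and 0.049 (6330417K15Rik), and the region difference of the second Lgi2 probe to 0.26. With replicate 2 turned, the same MEC ratios were 0.16 and −0.18, LEC ratios turned to 0.080 (second Lgi2 probe), −0.029 (Fndc5) and −0.24 (second Fndc5 probe), and region differences to 0.082 (second Lgi2 probe) and 0.43 (second Fndc5 probe). Leaving out a pair gave, in MEC, −0.20 to 0.57 for Cbln1, −0.070 to 0.38 for Lgi2, −0.17 to 0.068 for the second Lgi2 probe and −0.17 to 0.47 for 6330417K15Rik. In LEC it gave −0.22 to 0.033 for Plxdc1, −0.75 to 0.96 for Cbln1, −0.12 to 0.047 for the second Lgi2 probe, −0.032 to 0.56 for the second Fndc5 probe and −0.22 to 0.067 for 6330417K15Rik. Region differences ran from −0.84 to 0.87 for Cbln1, −0.16 to 0.084 for the second Lgi2 probe, −0.25 to 0.35 for Fndc5, −0.41 to 0.29 for the second Fndc5 probe and −0.091 to 0.69 for 6330417K15Rik. Of these differences, the second Lgi2 probe stood at 0.021 and the second Fndc5 probe at 0.29 without replicate 2 of both regions, the second Fndc5 probe at 0.18 without LEC replicate 2, and 6330417K15Rik at 0.54 without MEC replicate 2. Without LEC replicate 2, 1 probe of the array passed in MEC, and 0 in the other fits that left out a pair. Slide and scan as a block were not run, since each slide holds 1 array and each scan session 1 region. Dim probes near background, such as those of Slc24a2 and the second Cbln1 probe, limit what a difference can show.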
